A study of Mus musculus with 8 samples.

Results

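Miwi-null mouse testes at postnatal day 24 held more RNA of 5 of the 8 CatSper channel subunit genes than wild-type (WT) testes. Among all genes tested, 16.5% were called higher in RNA. In ribosome footprints, Catsperg1, 1 of the 5, was called higher and Catsper3 lower, where 12% and 13.3% of all genes were. Both footprint calls depended on which libraries were fitted. The 8 genes encode the subunits of the sperm calcium channel CatSper that were looked up by symbol: Catsper1, Catsper2, Catsper3, Catsper4, Catsperb, Catsperd, Catsperg1 and Catsperg2. They are 8 of the 21949 genes in the deposited tables, and all 8 passed the filter on low counts that left 16050 genes for testing. All samples were testes of C57BL/6 mice of that age, either null for Miwi, the germ-line Argonaute protein encoded by Piwil1, or WT. From each genotype, 2 libraries of total RNA and 2 of RPF (ribosome-protected fragments, the footprints left when nuclease digests mRNA outside a ribosome) were sequenced, 8 libraries in all. The labels describe the mice no further than this, do not state the Miwi allele and do not say which animals a library came from. The p-values below therefore reflect only how far these libraries differ, which may be technical in part.

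CatSper sits in the principal piece of the sperm flagellum, where it lets calcium in as the cytoplasm turns alkaline and drives the vigorous, asymmetric beat called hyperactivation. Its pore is built from the products of Catsper1, Catsper2, Catsper3 and Catsper4, and the products of Catsperb, Catsperd and the Catsperg pair are auxiliary subunits with large extracellular parts. In mice, loss of a pore-forming subunit or of CATSPERD abolishes the channel and makes males infertile. In mouse testis, Catsper2 and Catsperb transcripts are known from spermatocytes on and Catsper1 transcripts from spermatids, and germ cells of Miwi-null mice stop developing as round spermatids.

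Total gene counts ranged from 11130966 to 28334617 per library, and the lowest count of any of the 8 genes in any library was 251. The deeper RPF library was number 2 in Miwi-null testes and number 1 in WT testes. Within all 4 groups the counts of the 2 libraries differed beyond sampling noise, with a chi-square per degree of freedom of 22.4 in Miwi-null RPF and 44.1 in WT RPF, against 1.18 in Miwi-null RNA and 3.85 in WT RNA. Piwil1 itself had 46 and 26 RNA counts in Miwi-null libraries and 8215 and 7165 in WT libraries. Levels below are CPM, the counts of the gene's most covered transcript normalised to a library size scaled by the trimmed mean of M-values (TMM). A change is the fitted log2 ratio of Miwi-null over WT with its standard error (SE). A gene was called where the Benjamini-Hochberg adjusted p of edgeR's quasi-likelihood test over all 16050 genes was under 0.05.

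In total RNA, Catsper2 and all 4 auxiliary genes rose in Miwi-null testes, and none of the 8 genes was called lower in the fit of all 8 libraries. Of all genes tested, 37.3% were called in RNA, 16.5% as higher and 20.8% as lower. The median RNA change of the 8 genes was 0.55 on the log2 scale, beside -0.07 over all genes tested.

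Catsperb, which encodes the auxiliary subunit beta, had the largest RNA change of the 8. Its RNA level was 119 and 118 CPM in the Miwi-null libraries, against 48.5 and 59.0 CPM in the WT libraries. Both Miwi-null values lay well above both WT values, and the change was 1.14 ± 0.14 (SE, edgeR adjusted p = 0.000473). Catsper2, a pore-forming subunit whose gene is deleted in a human deafness and infertility syndrome, had 388 and 384 CPM of RNA in Miwi-null libraries and 230 and 233 CPM in WT libraries. The groups did not overlap, and the change was 0.74 ± 0.11 (SE, edgeR adjusted p = 0.00112). Per coding length, it was the most abundant of the 8 in RNA in every library.

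Catsperg1 and Catsperg2 are paralogous mouse genes for the auxiliary subunit gamma. Catsperg1 RNA stood at 240 and 244 CPM in Miwi-null libraries, against 148 and 144 CPM in WT libraries. Catsperg2 RNA stood at 276 and 266 CPM in Miwi-null libraries, against 179 and 174 CPM in WT libraries. Both genes were higher in every Miwi-null library, with changes of 0.73 ± 0.12 for Catsperg1 and 0.62 ± 0.10 for Catsperg2 (SE, edgeR adjusted p = 0.00153 and 0.00205). How fragments that match both copies were assigned is not given in the sources used here, so the split between them is uncertain. Catsperd, which encodes the auxiliary subunit delta, had 143 and 145 CPM of RNA in Miwi-null libraries and 107 and 99.8 CPM in WT libraries. The groups were apart by a smaller margin, with a change of 0.48 ± 0.10 (SE, edgeR adjusted p = 0.00515). Without Miwi-null RNA library 2 the Catsperd call was lost (edgeR adjusted p = 0.0522). The other 4 higher calls held without any 1 library.

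The remaining pore-forming genes were not called in RNA. Catsper1, whose product has a histidine-rich amino-terminal tail, had 122 and 119 CPM in Miwi-null libraries, against 160 and 142 CPM in WT libraries. Both Miwi-null values were below both WT values, but the change of -0.33 ± 0.14 (SE) did not pass over all genes (edgeR adjusted p = 0.107). It did pass as lower without WT RPF library 2 (-0.33, edgeR adjusted p = 0.0281) and in a fit of the RNA libraries alone (-0.27 ± 0.06, SE, edgeR adjusted p = 0.000819). Catsper4 had 83.7 and 81.4 CPM of RNA in Miwi-null libraries and 94.2 and 96.3 CPM in WT libraries, a change of -0.21 ± 0.13 (SE, edgeR adjusted p = 0.232). Catsper3 had 50.4 and 49.7 CPM in Miwi-null libraries, within the WT values of 52.6 and 48.8 CPM, and its change was -0.02 ± 0.11 (SE, edgeR adjusted p = 0.913). Its 95% interval, from -0.26 to 0.23, does not reach the fitted change of any of the 5 genes that rose. The sign of the Catsper3 RNA change turned under all 3 other scalings.

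**Figure D1:**
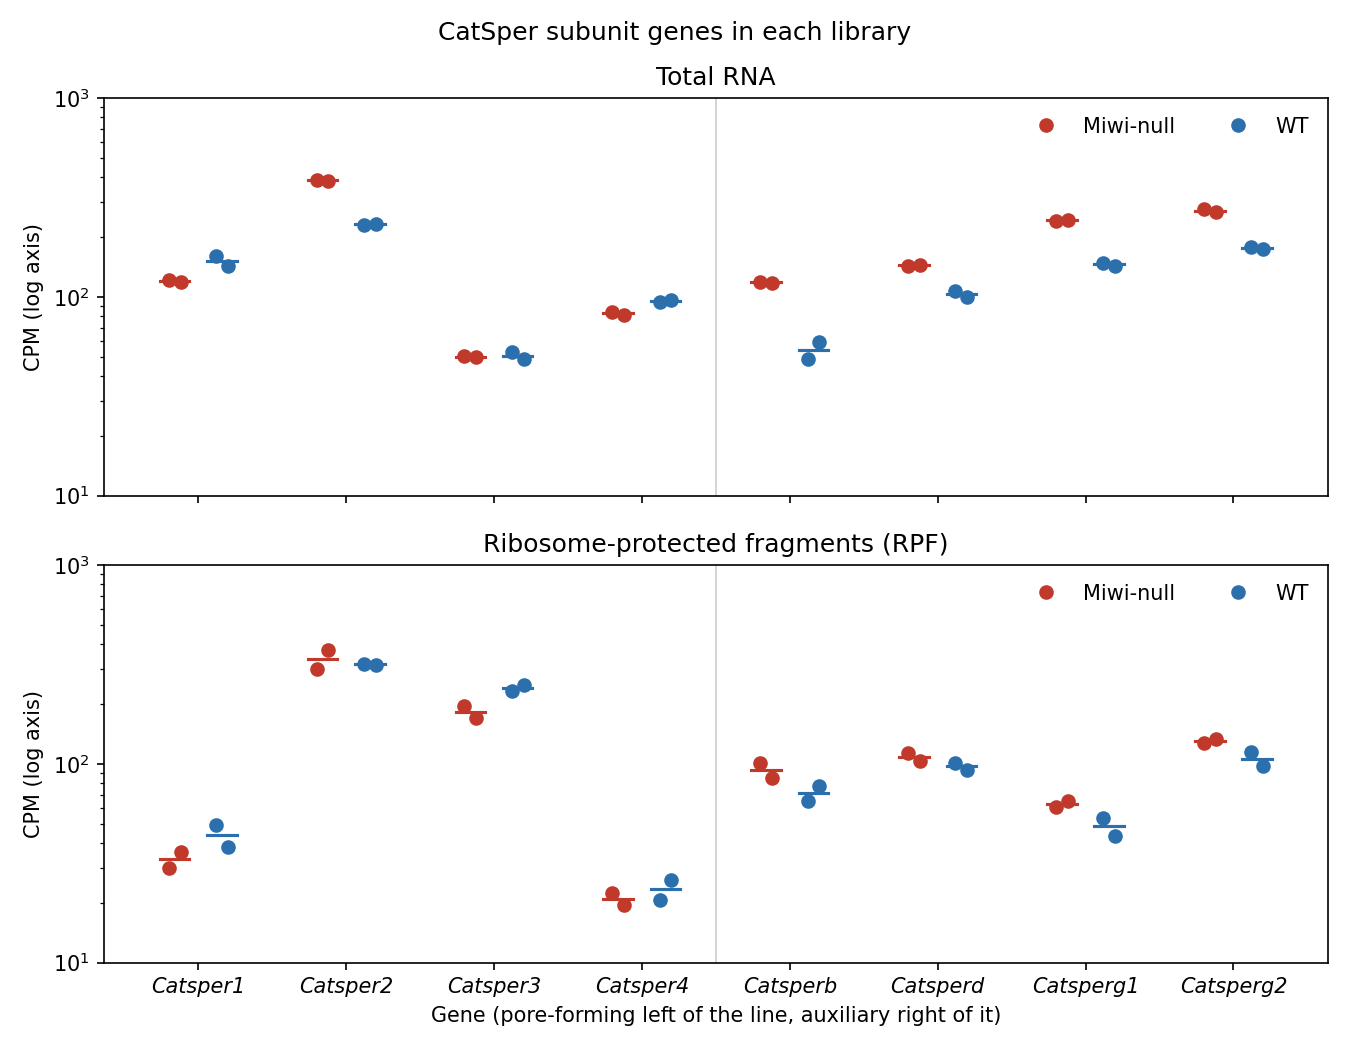
Level of each CatSper subunit gene in CPM (log axis), in total RNA (top) and in ribosome-protected fragments (bottom), with 1 point per library and a bar at the mean of 2, Miwi-null in red and WT in blue. In RNA, Catsper2 and the 4 auxiliary genes sit higher in both Miwi-null libraries, and the footprint panel shows smaller gaps for these genes.

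Whole testes mix cell types, and in such samples fewer cells of a type and less RNA per cell cannot be told apart. The elongating spermatid markers (10 of 10 matched, none at 0) summed to 3663 to 3704 CPM of RNA in Miwi-null libraries, against 18834 to 19093 CPM in WT libraries, and all 10 were called lower. The round spermatid markers (10 of 10, none at 0) summed to 1330 to 1353 CPM in Miwi-null RNA and 1915 to 1970 CPM in WT RNA, with 3 called lower. These markers disagreed in RNA, with changes from -1.98 for Tssk2 to 0.43 for Acrv1 and a median of -0.02. Their RPF sum was 1366 to 1409 CPM in Miwi-null and 2123 to 2240 CPM in WT libraries. In RPF 6 were called lower and 1 higher, with a median of -0.82. The pachytene spermatocyte markers (10 of 10, none at 0) summed to 5686 to 5722 CPM in Miwi-null RNA and 5795 to 5840 CPM in WT RNA, with 3 called higher and 1 lower. The spermatogonium markers (10 of 10, none at 0) summed to 135 to 136 CPM in Miwi-null RNA and 195 to 196 CPM in WT RNA, with 6 called lower. In RPF, the elongating spermatid sum was 557 to 689 CPM in Miwi-null and 7636 to 7802 CPM in WT libraries. The spermatogonium sum in RPF overlapped, at 431 to 503 CPM in Miwi-null and 501 to 606 CPM in WT libraries, with 2 called lower. Of the pachytene spermatocyte markers, 3 were called higher in RPF and none lower.

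The somatic lists moved in both directions, and none of their markers was at 0. The Sertoli markers (10 of 10 matched) summed to 1441 to 1450 CPM in Miwi-null RNA and 1926 to 1954 CPM in WT RNA, with 6 called lower. The peritubular myoid markers (8 of 8) summed to 157 to 163 CPM in Miwi-null RNA and 446 to 466 CPM in WT RNA, with 7 called lower. The macrophage markers (8 of 8) summed to 142 CPM in both Miwi-null RNA libraries and 191 to 205 CPM in WT RNA, with 2 called higher and 1 lower. The Leydig markers (10 of 10), by contrast, summed to 2396 to 2409 CPM in Miwi-null RNA and 1317 to 1323 CPM in WT RNA, with 4 called higher and 1 lower. The members disagreed: Star, Insl3 and Hsd17b3 rose in RNA by 1.59, 1.39 and 1.60 on the log2 scale, while Cyp11a1, the cholesterol side-chain cleavage enzyme, fell (-0.87, edgeR adjusted p = 0.00811) and Lhcgr, the luteinising hormone receptor, was not called in RNA (-0.63) or RPF (-0.55). In RPF the Leydig sum was 8424 to 9328 CPM in Miwi-null and 2742 to 2819 CPM in WT libraries, with 6 called higher and none lower. The RNA falls of the Sertoli and macrophage sums were not seen in RPF. The Sertoli sum was 5540 to 5790 CPM in Miwi-null and 5534 to 6068 CPM in WT RPF, with 1 called higher and 2 lower. The macrophage sum was 248 to 259 CPM in Miwi-null and 250 to 261 CPM in WT RPF. The peritubular myoid sum was 485 to 517 CPM in Miwi-null and 618 to 677 CPM in WT RPF, with 2 called lower. The part of these shifts in the CatSper changes was not tested.

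The promoter windows of 4 of the 5 genes that rose in RNA are shown because these genes moved together. They come from RefSeq on GRCm38.p6, each from 250 bases before to 50 bases after an annotated start, and the table used here held 8 windows for 6 of the 8 genes. Catsperd and Catsperg1 have 2 windows each, of which the one farther upstream is printed. Capitals mark matches, on either strand, to the cyclic AMP response element half-site TGACG, which the spermatid activator CREM can bind, or to the X-box of the ciliary RFX factors, searched as GTTNCC and GGNAAC with 2 free bases between them.
Catsper2 at chr2:121413743-121414042, minus strand: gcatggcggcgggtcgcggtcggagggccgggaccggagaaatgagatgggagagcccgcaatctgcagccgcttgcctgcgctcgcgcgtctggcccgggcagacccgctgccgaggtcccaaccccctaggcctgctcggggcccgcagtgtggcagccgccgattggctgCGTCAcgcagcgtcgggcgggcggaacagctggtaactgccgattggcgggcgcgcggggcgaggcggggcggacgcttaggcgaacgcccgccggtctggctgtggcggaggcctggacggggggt
Catsperb at chr12:101404423-101404722, plus strand: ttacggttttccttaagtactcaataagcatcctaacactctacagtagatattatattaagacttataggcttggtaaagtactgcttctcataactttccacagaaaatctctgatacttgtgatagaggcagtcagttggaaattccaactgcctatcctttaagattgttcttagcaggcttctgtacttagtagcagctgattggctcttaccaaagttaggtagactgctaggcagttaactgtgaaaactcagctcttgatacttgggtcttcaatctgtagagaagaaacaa
Catsperd at chr17:56626797-56627096, plus strand: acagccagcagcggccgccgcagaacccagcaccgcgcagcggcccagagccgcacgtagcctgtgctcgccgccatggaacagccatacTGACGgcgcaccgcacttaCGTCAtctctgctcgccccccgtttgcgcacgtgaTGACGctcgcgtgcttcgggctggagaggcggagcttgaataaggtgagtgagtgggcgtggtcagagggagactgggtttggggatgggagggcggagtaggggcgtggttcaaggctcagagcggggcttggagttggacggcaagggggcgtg
Catsperg1 at chr7:29213984-29214283, minus strand: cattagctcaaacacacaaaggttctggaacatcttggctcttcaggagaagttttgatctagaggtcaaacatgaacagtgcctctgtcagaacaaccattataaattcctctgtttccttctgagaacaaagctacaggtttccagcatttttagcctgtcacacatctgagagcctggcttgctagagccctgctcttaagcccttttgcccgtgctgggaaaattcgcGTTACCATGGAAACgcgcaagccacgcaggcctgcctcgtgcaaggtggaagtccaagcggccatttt

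The 4 printed windows differed in base composition. The share of G and C was 74.7% in the Catsper2 window and 66.7% in the Catsperd window, against 48.3% in Catsperg1 and 38% in Catsperb. The Catsper2 window held 1 half-site and the printed Catsperd window 3, and 20.8% of the 32851 promoter windows in the table held at least 1. The X-box of the printed Catsperg1 window began 18 bases before the annotated start, and 0.451% of all windows held one. The second Catsperd window, with 53% G and C, and the second Catsperg1 window, with 59.3%, held neither motif. The Catsperb window held neither motif, nor did those of Catsper3 and Catsper4, and none of the 8 windows held for these 6 genes contained the full element TGACGTCA, which contains the half-site and occurred in 1.79% of all windows. A match of letters is a description and shows no binding.

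The 8 genes differed widely in level. Per length of coding sequence, in the FPKM values that the authors deposited, Catsper2 had the highest RNA level in both genotypes, at a mean of 181 ± 0.98 FPKM in Miwi-null and 104 ± 0.86 FPKM in WT libraries (SD, n = 2 each). Catsperb had the lowest, at 29.5 ± 0.12 FPKM in Miwi-null and 12.8 ± 1.73 FPKM in WT libraries. In WT RNA the order below Catsper2 was Catsper1, Catsper4, Catsperg2, Catsper3, Catsperd and Catsperg1, and the replicate values overlapped between Catsper1 and Catsper4, between Catsper3 and Catsperd and between Catsperd and Catsperg1. In Miwi-null RNA no neighbours in the order overlapped, and both Catsperg genes stood directly below Catsper2.

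Footprints put the genes in another order. On the same FPKM scale, Catsper3, a pore-forming subunit, had a mean RPF level of 147 ± 8.02 in Miwi-null and 200 ± 2.53 in WT libraries (SD, n = 2 each), beside RNA levels of 35.0 in Miwi-null and 33.8 in WT libraries. Catsper2 stood at 183 ± 35.0 RPF FPKM in Miwi-null and 177 ± 8.93 in WT libraries. These 2 genes stood far above the other 6, of which the next, Catsperd, had 42.7 RPF FPKM in Miwi-null and 39.6 in WT libraries. In WT RPF the replicate values of Catsperb and Catsper1 overlapped, as did those of Catsper1 and Catsper4, and in Miwi-null RPF those of Catsperg1 and Catsper1 and of Catsper1 and Catsper4.

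Translational efficiency (TE), here the authors' ratio of RPF FPKM to RNA FPKM, spanned 14.3-fold among the 8 genes in Miwi-null and 19.4-fold in WT testes. Catsper3 was at the top with ratios of 4.33 and 4.05 in Miwi-null and 5.64 and 6.22 in WT replicates. Catsper4, another pore-forming subunit, was at the bottom with 0.300 and 0.285 in Miwi-null and 0.282 and 0.327 in WT replicates. The lowest Catsper3 ratio was thus more than 10 times the highest Catsper4 ratio.

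Against all genes in the edgeR fit, the RPF over RNA contrast called 7 of the 8 genes in Miwi-null testes, 1 higher and 6 lower, where 75.5% of all genes were called, 38.4% higher and 37.1% lower. In WT testes it called 7 of the 8, 3 higher and 4 lower, where 74.2% of all genes were called, 37.8% higher and 36.4% lower. The share called was near the background in both genotypes, but in Miwi-null testes more of the 8 were called lower, and fewer higher, than among all genes. The 6 lower calls include Catsperb, at -0.35 ± 0.14 (SE, edgeR adjusted p = 0.0441), which was called in only 9 of 17 alternative fits, described below. In WT testes Catsperb was called higher, at 0.41 ± 0.14 (SE, edgeR adjusted p = 0.0271), and in 13 of 17 alternative fits. Catsper3 had a log2 RPF over RNA of 1.86 ± 0.11 in Miwi-null and 2.25 ± 0.11 in WT testes (SE), and the WT value stood at percentile 93.1 of all genes tested. Catsper4 had -1.98 ± 0.13 in Miwi-null and -2.03 ± 0.13 in WT testes (SE). Catsper1 had -1.86 ± 0.15 in Miwi-null and -1.79 ± 0.15 in WT testes, and Catsperg1 had -1.94 ± 0.12 in Miwi-null and -1.59 ± 0.12 in WT testes. The edgeR adjusted p of these Catsper1, Catsper3, Catsper4 and Catsperg1 values was at most 7.45e-06. Catsper2 was called higher in WT, at 0.45 ± 0.11 (SE, edgeR adjusted p = 0.00472), and not called in Miwi-null testes, at -0.20 ± 0.11 (SE, edgeR adjusted p = 0.125). With counts summed over transcripts the WT call of Catsper2 was lost (0.16, edgeR adjusted p = 0.227) and Catsper2 was called lower in Miwi-null testes (-0.47, edgeR adjusted p = 0.00532). That lower call was also made with DESeq2 size factors (-0.26, edgeR adjusted p = 0.0456) and without Miwi-null RPF library 2 (-0.38, edgeR adjusted p = 0.0106).

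**Figure D2:**
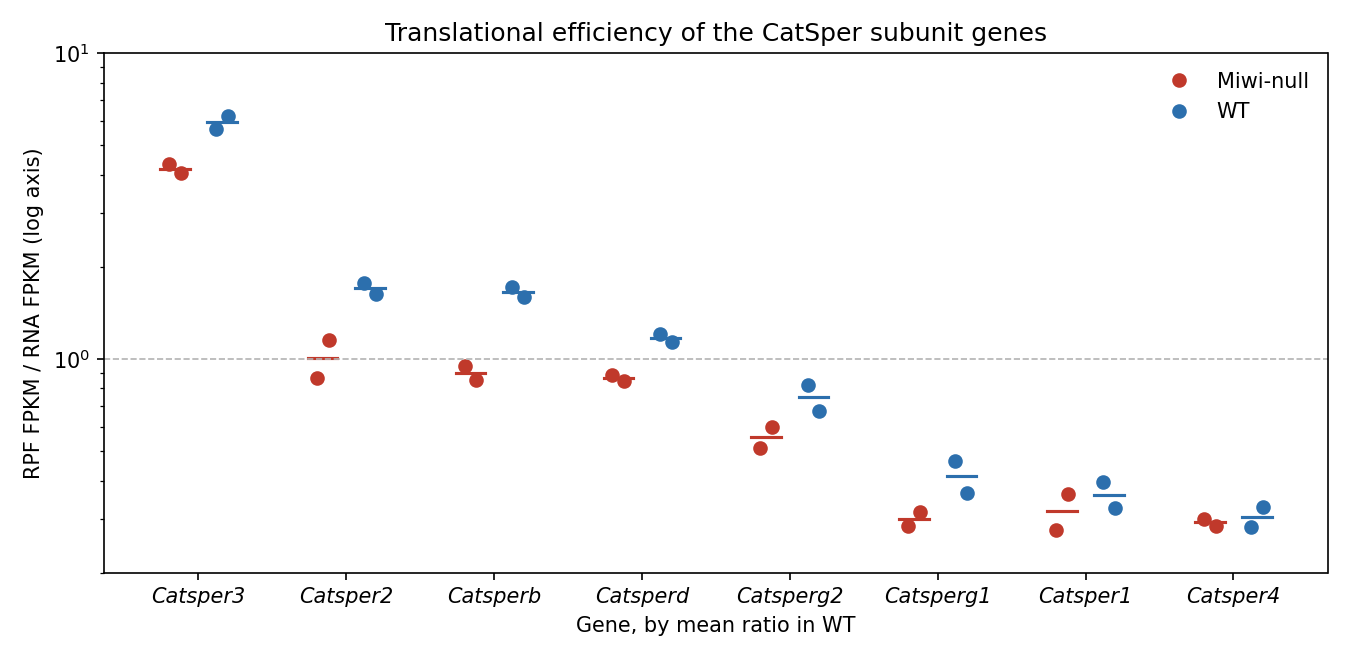
Translational efficiency of each CatSper subunit gene as the authors' ratio of RPF FPKM to RNA FPKM (log axis), by mean ratio in WT, with 1 point per replicate and a bar at the mean of 2, Miwi-null in red and WT in blue. The ratio runs from Catsper3, at 4.19 in Miwi-null and 5.93 in WT, down to Catsper4, at 0.293 in Miwi-null and 0.305 in WT.

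Between genotypes, the fitted RPF change of each gene that rose in RNA was smaller than its RNA change. This difference passed the TE test below for Catsper2 and Catsperb. Picking genes by their RNA rise favours this pattern, since the TE change subtracts the same RNA estimate. Of the 8 genes, 2 were called in RPF, Catsperg1 as higher and Catsper3 as lower, where 25.4% of all genes tested were called, 12% as higher and 13.3% as lower. The median RPF change of the 8 genes was 0.12 on the log2 scale, beside -0.00461 over all genes tested. Catsper3 had 195 and 169 CPM of RPF in Miwi-null libraries, against 231 and 250 CPM in WT libraries. Both Miwi-null values were lower, with a change of -0.40 ± 0.10 (SE, edgeR adjusted p = 0.0212). Catsperg1 had 60.9 and 64.9 CPM of RPF in Miwi-null libraries, against 53.6 and 43.1 CPM in WT libraries. Both Miwi-null values were higher, with a change of 0.38 ± 0.12 (SE, edgeR adjusted p = 0.0453).

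Both footprint calls depended on which libraries entered the fit. The Catsper3 call was lost without Miwi-null RNA library 1 or 2 (edgeR adjusted p = 0.0577 and 0.0582), and without Miwi-null RPF library 2 the change was -0.29 (edgeR adjusted p = 0.134). The Catsperg1 call held only without WT RPF library 1 and was lost without each of the other 7 libraries, at edgeR adjusted p between 0.0763 and 0.139, with a change of 0.23 without WT RPF library 2. Fitted on the 4 RPF libraries alone, edgeR gave an adjusted p of 0.141 for Catsper3 and 0.176 for Catsperg1.

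The other 6 genes were not called in RPF. Catsper2 had 301 and 372 CPM in Miwi-null libraries, on both sides of the WT values of 318 and 314 CPM, and a change of 0.09 ± 0.11 (SE, edgeR adjusted p = 0.594). Catsperb had 101 and 84.8 CPM in Miwi-null libraries and 65.0 and 77.6 CPM in WT libraries, with a change of 0.38 ± 0.14 (SE, edgeR adjusted p = 0.0805). Catsperg2 had 127 and 134 CPM in Miwi-null libraries and 115 and 96.9 CPM in WT libraries, with a change of 0.30 ± 0.10 (SE, edgeR adjusted p = 0.0657). The intervals of Catsperb and Catsperg2, 0.06 to 0.70 and 0.06 to 0.54, stayed above 0 before adjustment, and that of Catsper1, -0.74 to -0.06, stayed below 0. Catsper1 had 30.0 and 36.1 CPM in Miwi-null libraries and 49.4 and 38.1 CPM in WT libraries, with a change of -0.40 ± 0.15 (SE, edgeR adjusted p = 0.0819). In each genotype the deeper RPF library held the higher Catsper1 level. Catsperd had 113 and 103 CPM in Miwi-null libraries, just above the 101 and 93.2 CPM in WT libraries, with a change of 0.15 ± 0.10 (SE, edgeR adjusted p = 0.282). Catsper4 had 22.4 and 19.5 CPM in Miwi-null libraries, overlapping the 20.7 and 26.0 CPM in WT libraries, with a change of -0.16 ± 0.13 (SE, edgeR adjusted p = 0.418). Without a single WT RPF library some of these passed: Catsperg2 without library 1 (0.46, edgeR adjusted p = 0.0102), and Catsper1 (-0.57, edgeR adjusted p = 0.00883) and Catsperb (0.51, edgeR adjusted p = 0.0227) without library 2.

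**Figure D3:**
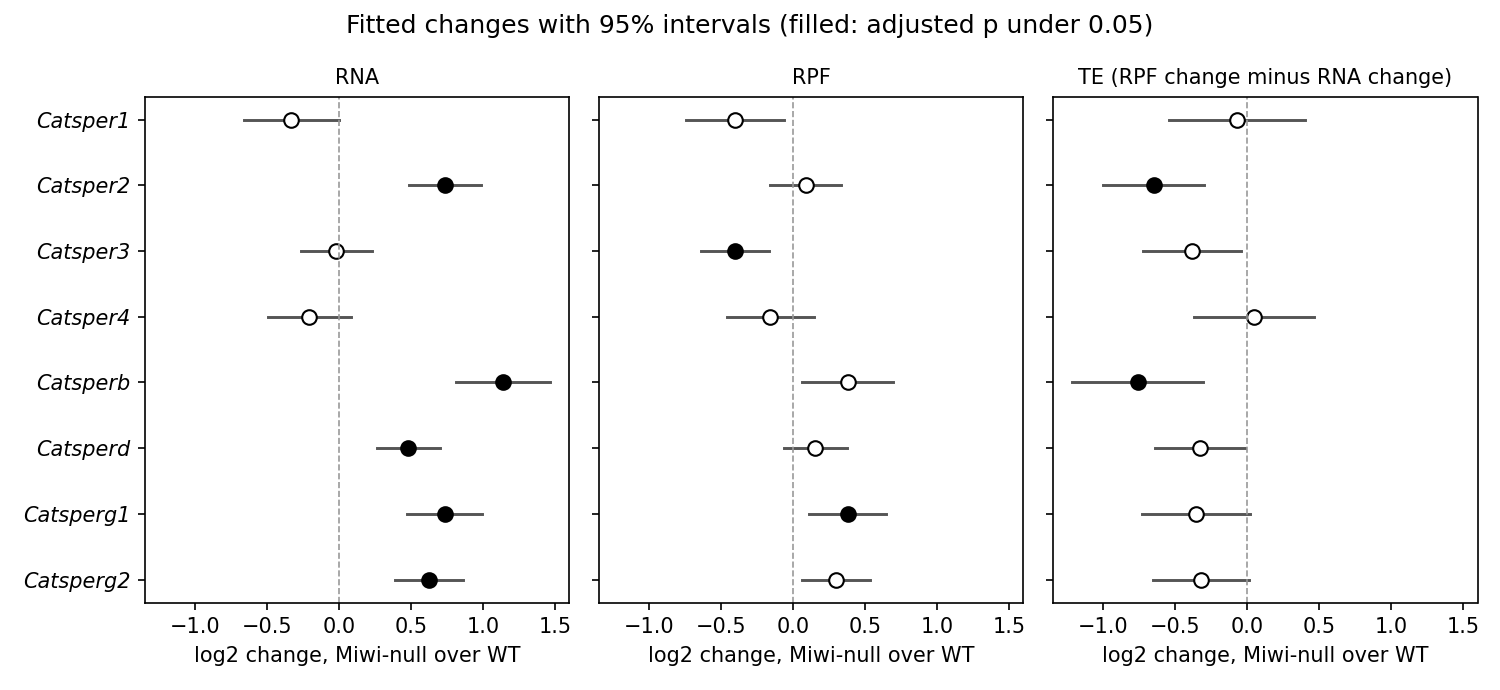
Fitted log2 change of each CatSper subunit gene, Miwi-null over WT, in RNA, in RPF and in TE, with 95% intervals as lines and filled points where the adjusted p was under 0.05. RNA has 5 filled points, all above 0, and RPF and TE have 2 each.

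The TE change, fitted as the interaction of genotype and assay, asks whether footprints changed by as much as RNA. Catsper2 and Catsperb fell in TE in Miwi-null testes and none of the 8 genes rose, where 14.9% of all genes tested were called, 7.32% as higher and 7.56% as lower. The median TE change of the 8 genes was -0.34 on the log2 scale, beside 0.04 over all genes tested. It was lower still for the round and elongating spermatid markers, at -0.61 and -2.49, and ran from 0.12 to 0.73 over the other marker lists. For Catsper2 the authors' ratio was 0.869 and 1.15 in Miwi-null replicates, against 1.78 and 1.63 in WT replicates. For Catsperb it was 0.949 and 0.855 in Miwi-null replicates, against 1.72 and 1.59 in WT replicates. Both genes were lower in both Miwi-null replicates, with fitted TE changes of -0.65 ± 0.15 for Catsper2 and -0.76 ± 0.20 for Catsperb (SE, edgeR adjusted p = 0.0262 and 0.0365).

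Both TE calls were lost when any 1 RNA library was left out, while the fitted changes stayed at -0.66 to -0.63 for Catsper2 and -0.90 to -0.62 for Catsperb. The same fits called 620 to 976 genes in TE among all tested, against 2389 with all libraries. Without any 1 of the 4 RNA libraries, the edgeR adjusted p was between 0.0935 and 0.121 for Catsper2 and between 0.0609 and 0.156 for Catsperb, and without Miwi-null RPF library 2 it was 0.0800 for Catsperb.

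The TE of the other 6 genes was not called. Catsper3, Catsperd, Catsperg1 and Catsperg2 had fitted TE changes of -0.39 ± 0.15, -0.33 ± 0.14, -0.36 ± 0.16 and -0.32 ± 0.15 (SE, edgeR adjusted p = 0.118, 0.143, 0.182 and 0.177). All of these have the same sign as the TE changes of Catsper2 and Catsperb. The authors' ratio for Catsperd was 0.882 and 0.844 in Miwi-null replicates and 1.21 and 1.13 in WT replicates. Without WT RPF library 2, Catsperg1 (-0.50, edgeR adjusted p = 0.0248) and Catsperg2 (-0.43, edgeR adjusted p = 0.0378) passed as lower. Catsper1 and Catsper4 had TE changes of -0.07 ± 0.21 and 0.05 ± 0.18 (SE, edgeR adjusted p = 0.862 and 0.899), and their replicate ratios overlapped between genotypes. In the authors' deposited table of both replicates summed, which marks genes without a replicate test, Catsper2, Catsper3, Catsperb, Catsperd and Catsperg2 carried the mark Down and Catsper1, Catsper4 and Catsperg1 the mark UnChange. For Catsper1, Catsperg1 and Catsperg2 the authors' deposited tables of single replicates marked Down in replicate 1 and UnChange in replicate 2. Catsper4 was marked Up in replicate 1 and UnChange in replicate 2. The marks follow the authors' TE ratio per gene, not the ratio per transcript used above. For Catsper4 in replicate 1, Miwi-null over WT was 1.39 per gene and 1.06 for the transcript.

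Transcripts of a gene did not share 1 ratio. Catsperg1 had a protein-coding transcript of 648 coding nucleotides whose ratio was 2.92 and 3.33 in Miwi-null and 2.63 and 2.19 in WT replicates. The 3453-nucleotide transcript that stood for the gene had 0.284 and 0.316 in Miwi-null and 0.464 and 0.364 in WT replicates. The short transcript thus had the higher ratio in all 4 pairs of libraries, although a fragment was counted for every transcript it overlapped, so the 2 are not independent. The 2 Catsper3 coding transcripts lay closer, at 5.81 and 5.24 in Miwi-null and 7.03 and 7.25 in WT replicates for the 1146-nucleotide form that did not stand for the gene.

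By the profile over the 8 libraries, the tested gene nearest to Catsper2 was Catspere2, the gene of the auxiliary subunit epsilon, with a root mean square difference of 0.08 on the centred log2 CPM scale. Catspere2 had changes of 0.67 in RNA, 0.06 in RPF and -0.61 in TE, beside 0.74, 0.09 and -0.65 for Catsper2. Because Catspere2 was picked by closeness over the libraries that gave these changes, their likeness follows from the choice and is no separate support. The genes nearest to the others were Cyhr1 for Catsper1, Ppt1 for Catsper3, Ap3d1 for Catsper4, Ddx50 for Catsperb, Dtl for Catsperd, Atxn1 for Catsperg1 and Rps6kc1 for Catsperg2, at differences from 0.05 to 0.09. All profiles share the same 8 libraries and their contrast of assays.

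Accessory subunits and other sperm channel, transport and signalling genes, together called partners here, moved in both directions in RNA. All 3 lower RNA calls were among the other genes. The 6 of 15 that were called in RPF were all lower, 2 of them accessory or associated subunits and 4 of them other genes. Of 16 genes listed, 15 were found in the tables and tested. Among the 7 accessory or associated subunits tested, 3 rose in RNA and none fell, where 16.5% of all genes rose and 20.8% fell, with a median of 0.41: Catspere2, C2cd6, which is needed to bring the channel into the flagellum (0.47 ± 0.10, SE), and Slco6c1, an organic anion transporter that copurifies with it (0.55 ± 0.16, SE). The C2cd6 RNA call was lost without WT RNA library 1 or Miwi-null RNA library 2 (edgeR adjusted p = 0.0558 and 0.0619), and the Slco6c1 call without those libraries or Miwi-null RNA library 1 (edgeR adjusted p up to 0.185). In RPF, with a median of 0.02, 2 of the 7 fell, C2cd6 by 0.62 ± 0.10 and Tmem249, a transmembrane subunit, by 1.06 ± 0.20 (SE). In TE, 2 of the 7 fell, Catspere2 and C2cd6, and the C2cd6 change was -1.09 ± 0.14 (SE). For Catspere2, whose TE change had an edgeR adjusted p of 0.0299, the call was lost without any 1 RNA library (edgeR adjusted p up to 0.139) and without Miwi-null RPF library 1 (0.0806).

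Of the 8 genes for other sperm ion channels, transporters and signalling proteins, 2 rose and 3 fell in RNA, with a median of -0.16. Among all genes, 16.5% rose and 20.8% fell. Slc9c1 and Slc9b1 (0.69 ± 0.15, SE) rose, and Atp1a4, Abhd2 (-0.69 ± 0.09, SE) and Lrrc52 fell. The Slc9b1 call was lost without either WT RNA library or Miwi-null RNA library 1, with changes from 0.65 to 0.72. The Lrrc52 change was -0.73 ± 0.24 (SE, edgeR adjusted p = 0.0437). Its call was lost without TMM and with each assay scaled by itself (edgeR adjusted p = 0.0998 and 0.0606). Summing counts over transcripts or taking the replicate number as a block also lost it (edgeR adjusted p = 0.0529 and 0.0741). The call was lost as well without any 1 RNA library, with changes from -0.79 to -0.66. The sperm sodium-proton exchanger gene Slc9c1 rose, with 257 and 262 CPM of RNA in Miwi-null libraries, against 108 and 130 CPM in WT libraries (change 1.12 ± 0.11, SE, edgeR adjusted p = 0.000137). Its RPF level of 184 and 184 CPM in Miwi-null libraries lay close to the 187 and 172 CPM in WT libraries, and its TE change was -1.09 ± 0.15 (SE, edgeR adjusted p = 0.00365). The sperm sodium pump gene Atp1a4 fell in both assays, with 312 and 313 CPM of RNA in Miwi-null and 685 and 675 CPM in WT libraries, and 13.0 and 9.40 CPM of RPF in Miwi-null and 54.6 and 57.8 CPM in WT libraries. Its changes were -1.12 ± 0.13 in RNA and -2.36 ± 0.14 in RPF (SE, edgeR adjusted p = 0.000285 and 6.8e-06). Kcnu1, the sperm potassium channel gene, and Adcy10, the bicarbonate-sensitive adenylyl cyclase gene, fell in RPF, with changes of -0.36 ± 0.09 and -0.42 ± 0.08 (SE, edgeR adjusted p = 0.024 and 0.00704). The Kcnu1 call was lost without either Miwi-null RNA library, either Miwi-null RPF library or WT RPF library 1 (edgeR adjusted p = 0.0592 to 0.107), and neither gene passed in RPF libraries alone (edgeR adjusted p = 0.128 for Kcnu1 and 0.103 for Adcy10). Abhd2 was also called lower in RPF (-0.34 ± 0.09, SE, edgeR adjusted p = 0.0255), but not in RPF libraries alone (edgeR adjusted p = 0.158). With the replicate number as a block the Abhd2 call was lost too (edgeR adjusted p = 0.0582). It was also lost without any 1 RNA library, WT RPF library 1 or Miwi-null RPF library 1, with changes from -0.34 to -0.27. In all, 6 of the 15 partners fell and none rose in RPF, where 13.3% of all genes fell and 12% rose. The 9 partners not called in RPF included 6 with fitted changes above 0, from 0.02 for Catsperz to 0.27 for Slc9b1, and in RPF libraries alone 3 of the 15 fell. In TE, 5 of the 15 fell and none rose, where 7.56% of all genes fell and 7.32% rose. The median TE change was -0.32 for the accessory or associated subunits and -0.42 for the other genes. The elongating spermatid markers had a median change of -1.90 in RNA and -6.05 in RPF, both below the lowest change of any of the 8 CatSper genes.

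**Figure D4:**
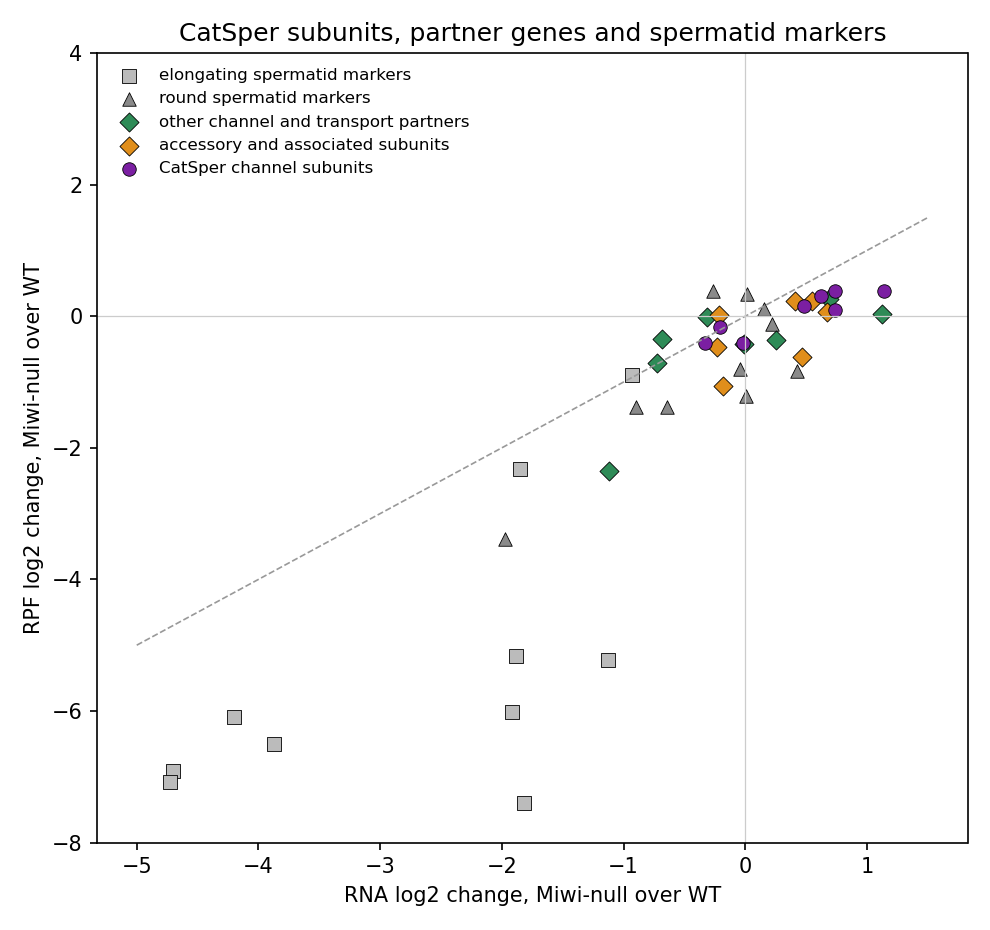
RPF change against RNA change (log2, Miwi-null over WT) for the 8 CatSper subunit genes, their partner genes and spermatid markers, 1 point per gene, with the dashed line where both changes are equal. The CatSper genes lie between -0.33 and 1.14 in RNA and between -0.40 and 0.38 in RPF, and the elongating spermatid markers reach -4.72 in RNA and -7.40 in RPF.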

How the data were processed

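Total RNA and RPF libraries of Miwi-null and WT testes, 2 each, were grouped by their titles. The authors deposited whole-number fragment counts per transcript without normalization, per the file headers, together with FPKM and the ratio of RPF to RNA FPKM (TE), which held in 100% of rows. The authors also deposited the TE fold change between genotypes as a ratio and its log2 value. Of the lengths, 84.7% are multiples of 3, so lengths were read as coding lengths. Whether fragments outside coding sequence were counted is not given. Tools listed in the submitters' processing notes are STAR 2.5.0a, Bowtie 1.2.2 and cutadapt 2.5, with build GRCm38. Not given in the sources used here were the counting program, its use of strand and its handling of multiply mapping fragments. By RefSeq, Catsper2 overlaps Pdia3 and Catsperd overlaps Gm33461, whose reads may not be separable.

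The transcript with the highest mean count stood for its gene, because summed counts were 2.23 to 2.39 times larger. In R 4.3.3, edgeR 4.0.16 kept genes by filterByExpr (minimum count 10, minimum total 15), scaled all 8 libraries by TMM and fitted 4 groups by robust quasi-likelihood with 4 residual degrees of freedom. The fit was also run on simulated counts with 1 spread for all libraries. Real RPF replicates differed more than RNA replicates, so that run cannot check the RPF errors. Changes are relative to most genes, and TE compares shares. A count of 1 stood for 0.0353 to 0.0898 CPM. The model shares a dispersion between assays, so RPF errors may be too small. Named genes were the 8 members, Piwil1, the partner list and the gene nearest each member by log2(CPM + 0.5) profile. Members and lists were chosen with earlier results of these data known. Alternatives changed the scaling, filter, feature, test (DESeq2 1.42.0), block and libraries fitted.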

Additional observations from a re-analysis of the deposited data

How the results depend on the processing

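The count of CatSper genes called in RNA, 5, ranged from 4 to 6 when 1 library was left out and was 6 in RNA libraries alone, with Catsper1 added as lower, and the footprint and TE counts moved more. The RPF count of 2 became 1 without TMM and 0 in a fit of the RPF libraries alone, and ran from 0 to 3 with 1 library left out. The TE count of 2 ran from 0 to 4 with 1 library left out. The counts of RPF against RNA ran from 6 to 7 in Miwi-null and in WT. For the 15 partner genes the counts with 1 library left out ran from 4 to 11 in RNA (8 as reported), 4 to 8 in RPF (6) and 3 to 7 in TE (5), and the RPF count was 3 in a fit of RPF libraries alone.

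Replicate numbers were shared between groups, but deviations of same-numbered libraries correlated at 0.05 in RNA and at -0.70 in RPF across genes, so the numbers were not taken as pairs. With the number as a replicate block, the CatSper counts were 1 in RPF and 0 in TE and the partner TE count 3. With crossed RPF numbers as a block, an alternative chosen after seeing the data, the CatSper counts were 5 in RPF and 6 in TE and the partner counts 10 in RPF and 12 in TE. That fit raised calls over all genes to 8180 in RPF, against 4075, and 6538 in TE, against 2389. In RNA it called 9098 genes and added Catsper1 (-0.33, edgeR adjusted p = 0.000211) and Catsper4 (-0.21, edgeR adjusted p = 0.0178) as lower. The crossed pairing joins the deeper RPF library of each genotype.

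Among the CatSper changes and the called partner changes, signs turned only for uncalled ones. Catsper3 RNA was 0.0205 with DESeq2 size factors, 0.0204 in the DESeq2 Wald test, 0.0792 on library totals alone, 0.0452 with each assay scaled by itself and 0.0444 in RNA libraries alone, and ran from -0.0754 to 0.0494 with 1 library left out. Catsper4 TE was -0.0934 on library totals and -0.0163 with each assay scaled by itself, and ran from -0.147 to 0.213 with 1 library left out. With 1 library left out, Catsper4 RPF ran from -0.287 to 0.00426, Catsper2 RPF from -0.0539 to 0.234 and Catsper1 TE from -0.266 to 0.107.

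Over all genes, RNA calls split 2646 higher to 3342 lower, and 3144 to 2561 without TMM. TE calls split 1175 to 1214, and 679 to 1648 without TMM, which moved the median TE change of all genes to -0.10, against 0.04. Without TMM, Catsper3 was called lower in TE (-0.53, edgeR adjusted p = 0.0302). Calls over all genes in RNA were 9044 in RNA libraries alone, against 5988, and in RPF they were 1984 in RPF libraries alone, against 4075. In TE they were 1237 with the replicate block, against 2389. The lowest count of any of the 8 genes was 251, and RPF libraries of a group differed beyond counting noise, with a chi-square per degree of freedom of 22.4 in Miwi-null and 44.1 in WT.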
